A study of Mus musculus with 12 samples.

Results

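The nuclear-encoded subunits of the respiratory chain were described in 12 RNA libraries from the extensor digitorum longus, a fast hind limb muscle, of C57BL/6 mice. A gene was a member when its identifier mapped to a protein-coding gene named as a subunit of complex I (Nduf a, b, c, s or v with a number), complex II (Sdha to Sdhd), complex III (Uqcr genes and Cyc1), complex IV (Cox4 to Cox8) or complex V (Atp5 genes), or as cytochrome c (Cycs). These names gave 87 members among 55573 identifiers in the table, with 37 in complex I, 4 in complex II, 9 in complex III, 18 in complex IV, 18 in complex V and 1 for cytochrome c. The names carry older assignments: Ndufa4 is counted here with complex I although its protein is now placed in complex IV, and Atp5s is better known as an assembly factor than as a subunit.

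The libraries fell into 4 groups of 3. These were RNA of 1 myofiber, of pools of 5 myofibers, of pools of 20 myofibers, and of whole muscle. No gene was altered and no agent was given in any group, per the labels. Myofibers went straight into lysis buffer while RNA of whole muscle was extracted with Trizol, so preparation and group cannot be told apart. The labels name no animals, so p-values measure only the spread between these libraries.

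The respiratory chain passes electrons from NADH through complex I, or from succinate through complex II, to complex III, cytochrome c and complex IV. Proton pumping along the way drives ATP synthase, complex V. A few subunits of these complexes are encoded in mitochondrial DNA, but most are nuclear, and several complex IV subunits exist in a form typical of heart and skeletal muscle and a form found in most tissues. Fast muscles such as this one hold mostly glycolytic fibers with fewer mitochondria than slow fibers.

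Libraries held 4702823 to 27787120 counted reads, and the members took 1.29% to 7.63% of them. All 10 muscle fiber markers were read in every group. Background differed between libraries: of 1504 genes for smell, pheromone and taste receptors, which muscle is not known to use, 58.1% to 97.3% had a read in pools of 5 replicates 1 and 2 and in all pools of 20, against 4.59% to 26.7% in single fibers and pools of 5 replicate 3, and 2.33% to 4.85% in whole muscle. Scaling factors (TMM, which sets the level of most genes equal) spanned 0.522 to 2.95. In each fiber group 1 library stood apart from its pair over all genes (single fiber 2, pools of 5 replicate 3 and pools of 20 replicate 2). Summed over the members, the scaled level was 58252, 137600 and 42104 counts scaled to library size (CPM) in single fibers, 54947, 40095 and 115783 CPM in pools of 5, 39306, 4603 and 34098 CPM in pools of 20, and 32792, 41428 and 44100 CPM in whole muscle. The members shared most of this spread: the median SD of their log2 CPM was 0.94 among single fibers, 0.91 among pools of 5, 1.72 among pools of 20 and 0.28 in whole muscle, while the median SD of their log2 share of subunit reads was 0.31, 0.34, 0.12 and 0.14 in the same 4 groups. The mix within the chain is therefore given first, as each member's percent of the reads on all 87 members, and the levels follow.

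Of the 87 members, 69 had a promoter window in the RefSeq tables for GRCm38.p6, running from 250 bases before to 50 after the start. The motif of nuclear respiratory factor 1, a transcription factor named for its role at respiratory genes, has nearly the same letters on both strands and a free base near its middle, and is capitalised in the sequences below. It was present on either strand in 17 of these 69 members, or 24.3% of their 74 windows, against 4.60% of all 32851 windows. The ETS motif CCGGAAG, which the respiratory factor GABP recognises, was in 21.6% of member windows against 8.86% of all. The motif of YY1, searched by its consensus around the letters ATGG, was in 6.76% against 0.852%, and the estrogen-related receptor motif TCAAGGTCA in 2.70% against 0.423%. The muscle motif of MEF2, searched as CTA and TAG with free bases between, was in 1.35% of member windows, that of Cox5b, against 3.69% of all. A match is a run of letters and not a shown binding site. The 4 windows printed here belong to members that part company in the fibers below: Sdhd and Cox6a1, low within the chain in isolated fibers, and Atp5k and Cox8b, high there. Capitals mark the nuclear respiratory factor 1 motif, which Sdhd (chr9:50603800-50604099, minus strand) and Atp5k (chr5:108434350-108434649, minus strand) hold at 1 position each, Cox6a1 (chr5:115348909-115349208, minus strand) at 2, and the muscle gene Cox8b (chr7:140900397-140900696, minus strand) at 0.
Sdhd: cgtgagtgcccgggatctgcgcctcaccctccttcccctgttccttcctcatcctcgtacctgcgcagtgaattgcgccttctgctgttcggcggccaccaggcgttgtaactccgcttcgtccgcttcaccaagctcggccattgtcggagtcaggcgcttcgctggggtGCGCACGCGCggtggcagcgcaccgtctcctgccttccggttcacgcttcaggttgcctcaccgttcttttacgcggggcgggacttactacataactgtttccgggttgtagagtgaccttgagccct
Atp5k: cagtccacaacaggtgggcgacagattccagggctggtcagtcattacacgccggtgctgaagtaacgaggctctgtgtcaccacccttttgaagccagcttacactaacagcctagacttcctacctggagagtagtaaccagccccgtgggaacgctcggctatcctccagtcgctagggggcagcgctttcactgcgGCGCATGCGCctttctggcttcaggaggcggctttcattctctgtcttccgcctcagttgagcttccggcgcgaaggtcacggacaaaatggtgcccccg
Cox6a1: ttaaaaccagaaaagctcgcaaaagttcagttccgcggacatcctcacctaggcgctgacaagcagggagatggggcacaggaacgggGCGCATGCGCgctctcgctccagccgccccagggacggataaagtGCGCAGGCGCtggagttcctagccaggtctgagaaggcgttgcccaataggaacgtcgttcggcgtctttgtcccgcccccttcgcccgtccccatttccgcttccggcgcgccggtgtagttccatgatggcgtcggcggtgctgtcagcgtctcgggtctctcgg
Cox8b: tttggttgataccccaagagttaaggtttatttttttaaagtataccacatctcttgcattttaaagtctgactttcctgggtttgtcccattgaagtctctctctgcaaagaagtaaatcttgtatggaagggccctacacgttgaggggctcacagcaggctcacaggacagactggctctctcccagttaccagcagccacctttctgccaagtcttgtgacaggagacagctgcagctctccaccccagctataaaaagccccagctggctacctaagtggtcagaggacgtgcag
The motif stood both in members with a high and in members with a low share in isolated fibers.

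Isolated fibers, taken as the 9 single and pooled fiber libraries, differed from whole muscle in how subunit reads were spread over the complexes. Complex IV took a larger part and complexes II and III and cytochrome c a smaller one, while complexes I and V overlapped between fibers and muscle. Complex IV held 21.2%, 23.7% and 22.7% of subunit reads in single fibers, 24.3%, 23.7% and 23.4% in pools of 5, and 23.0%, 21.9% and 23.3% in pools of 20, against 15.5%, 17.6% and 19.2% in whole muscle. All 9 fiber libraries lay above all 3 of whole muscle, at 23.0% ± 0.956 (SD, n = 9) against 17.4% ± 1.84 (SD, n = 3). Complex II, succinate dehydrogenase, held 2.80%, 3.85% and 3.14% in single fibers, 2.79%, 2.42% and 3.16% in pools of 5, and 2.71%, 2.79% and 2.51% in pools of 20, against 6.65%, 5.89% and 4.97% in whole muscle. Every fiber library lay below whole muscle for complex II. Complex III stood at 10.5% to 13.0% in the fibers (median 12.4%) and at 13.5%, 13.6% and 14.0% in whole muscle, again without overlap. Complex I averaged 31.1% ± 1.64 in isolated fibers and 32.6% ± 0.272 in whole muscle, and complex V 30.5% ± 0.982 in isolated fibers and 29.5% ± 0.780 in whole muscle (SD, n = 9 and 3), with overlap in both. These shares count reads, so they compare libraries and not the amounts of the complexes, and no test was run on them.

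**Figure D1:**
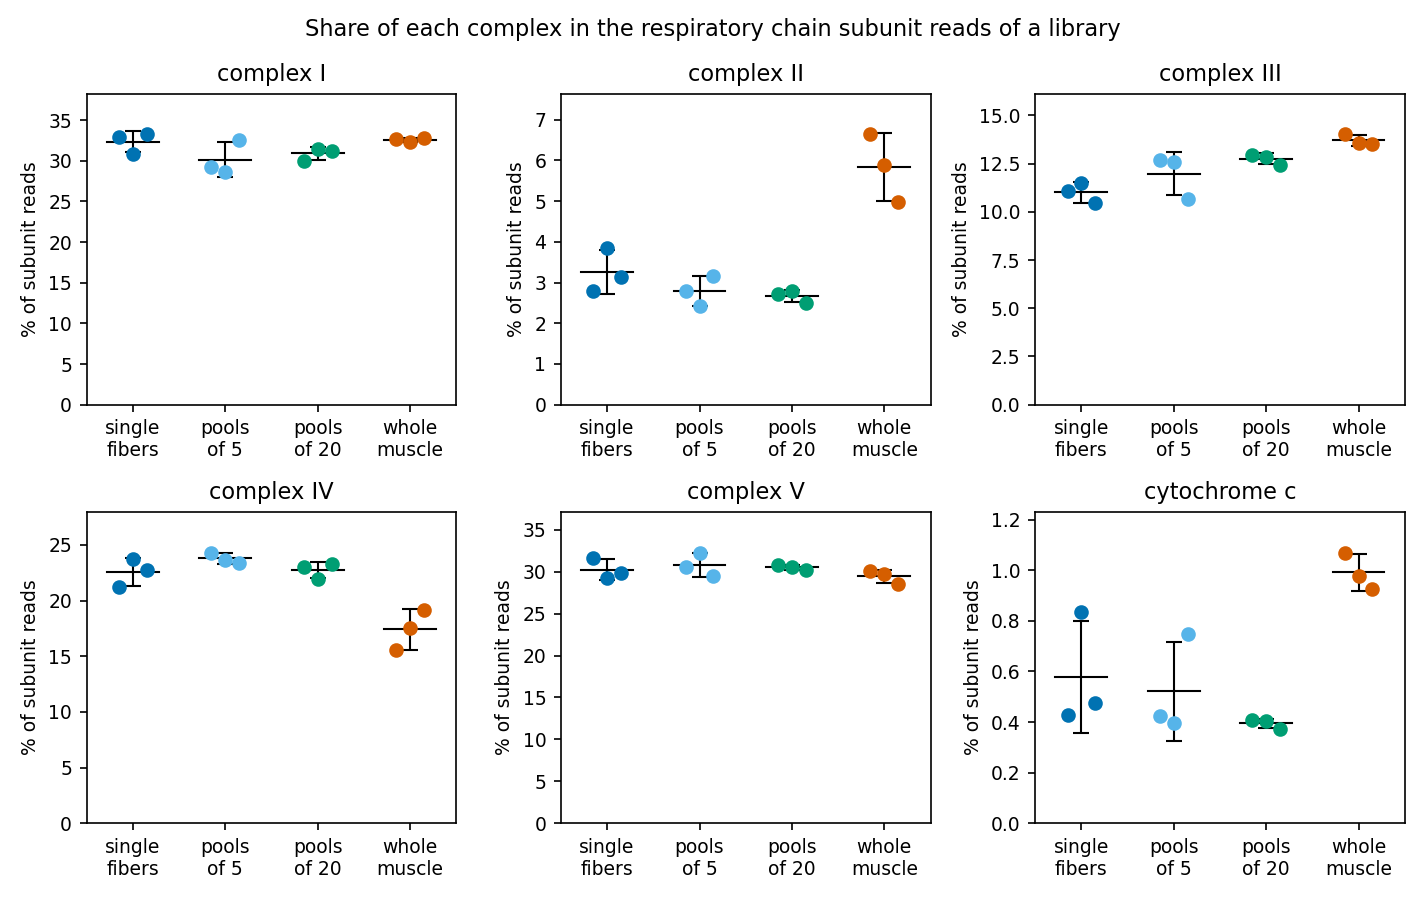
Percent of the reads on all 87 subunits that fell on each complex (y axis), by group (x axis); each point is 1 library, each line the mean of its group and each error bar its SD (n = 3). For complex IV the 9 fiber libraries lie at 21.2% to 24.3%, above whole muscle at 15.5% to 19.2%, and for complex II at 2.42% to 3.85%, below whole muscle at 4.97% to 6.65%.

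The 4 subunits of complex II all had lower shares in isolated fibers than in whole muscle, but they did not follow each other among the fiber libraries. Sdha, the flavoprotein that oxidises succinate, held 0.784%, 0.658% and 0.998% of subunit reads in single fibers, 0.734%, 0.688% and 0.514% in pools of 5, and 0.780%, 0.909% and 0.798% in pools of 20, against 1.81%, 1.60% and 1.13% in whole muscle. Sdhd, a membrane anchor of the complex, held 0.636%, 0.933% and 0.593% in single fibers, 0.297%, 0.253% and 0.687% in pools of 5, and 0.283%, 0.239% and 0.294% in pools of 20, against 1.82%, 1.52% and 1.33% in whole muscle. Sdhb, the iron-sulfur subunit, stood at 0.980% to 1.76% in fibers against 1.90% to 2.35% in whole muscle, and Sdhc, the other anchor, at 0.245% to 0.503% against 0.609% to 0.671%. In none of the 4 did a fiber library reach whole muscle. On the CPM scale complex II as a whole overlapped, at 1324 to 5298 CPM in single fibers, 972 to 3656 CPM in pools of 5 and 128 to 1065 CPM in pools of 20, against 2180 to 2442 CPM in whole muscle. The summed level of 8 slow and oxidative fiber markers, among them Myh7 and Tnnc1, was also lower, at 35.1 to 629 CPM in the fiber libraries against 821 to 1481 CPM in whole muscle. All 8 passed the test as lower in isolated fibers, none was without reads in any group, and their part in the complex II values was not tested.

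In complex III, 4 of the 9 members had every fiber library below whole muscle in share (Cyc1, Uqcrc1, Uqcrc2 and Uqcrfs1), 1 had every one above (Uqcr10), and Cycs was below. Uqcrfs1, the Rieske iron-sulfur protein, held 0.621%, 0.421% and 0.843% of subunit reads in single fibers, 0.671%, 0.875% and 0.606% in pools of 5, and 0.871%, 1.11% and 0.741% in pools of 20, against 2.64%, 2.06% and 1.97% in whole muscle. Cyc1, the cytochrome c1 subunit, held 0.392% to 1.28% in fibers (median 0.996%) against 1.41% to 1.67% in whole muscle, and Cycs, the electron carrier itself, 0.374% to 0.834% (median 0.423%) against 0.927% to 1.07%. Single fiber 2 and pools of 5 replicate 3 had the highest Cycs shares among fibers, at 0.834% and 0.747%, and Cyc1 shares of 0.392% and 0.454%, the lowest among fibers. Uqcrc1 and Uqcrc2 are the core proteins of the complex. The small subunit Uqcr11 was not low: it held 1.69% to 2.63% in fibers against 1.35% to 1.71% in whole muscle, and overlapped.

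Over the chain, 84 of the 87 members passed the filter on low counts, and on this scale 15 of them had all 9 fiber libraries above whole muscle and 23 had all 9 below. Over all 22110 genes that passed, the same scale put 1.67% without overlap above and 3.36% below, 5.02% in all. The scale is built from the members, so the members' own count is a description. The 15 above were Ndufa2, Ndufa3, Ndufa11, Ndufa13, Ndufb7, Ndufc1, Ndufs6 and Ndufv3 of complex I, Uqcr10 of complex III, Cox6a2, Cox7a1 and Cox8b of complex IV, and Atp5e, Atp5k and Atp5o of complex V. Among the 23 below was Ndufv1, the flavoprotein that takes the electrons from NADH, at 0.258% to 0.468% in fibers against 0.696% to 0.818% in whole muscle, and Ndufs1, a large iron-sulfur subunit, at 0.129% to 0.614% in fibers against 0.666% to 1.04% in whole muscle. Of the other iron-sulfur subunits of complex I, Ndufs7 and Ndufs8 were below too, while Ndufv2 overlapped, at 0.687% to 2.06% in fibers against 2.04% to 3.04% in whole muscle.

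**Figure D2:**
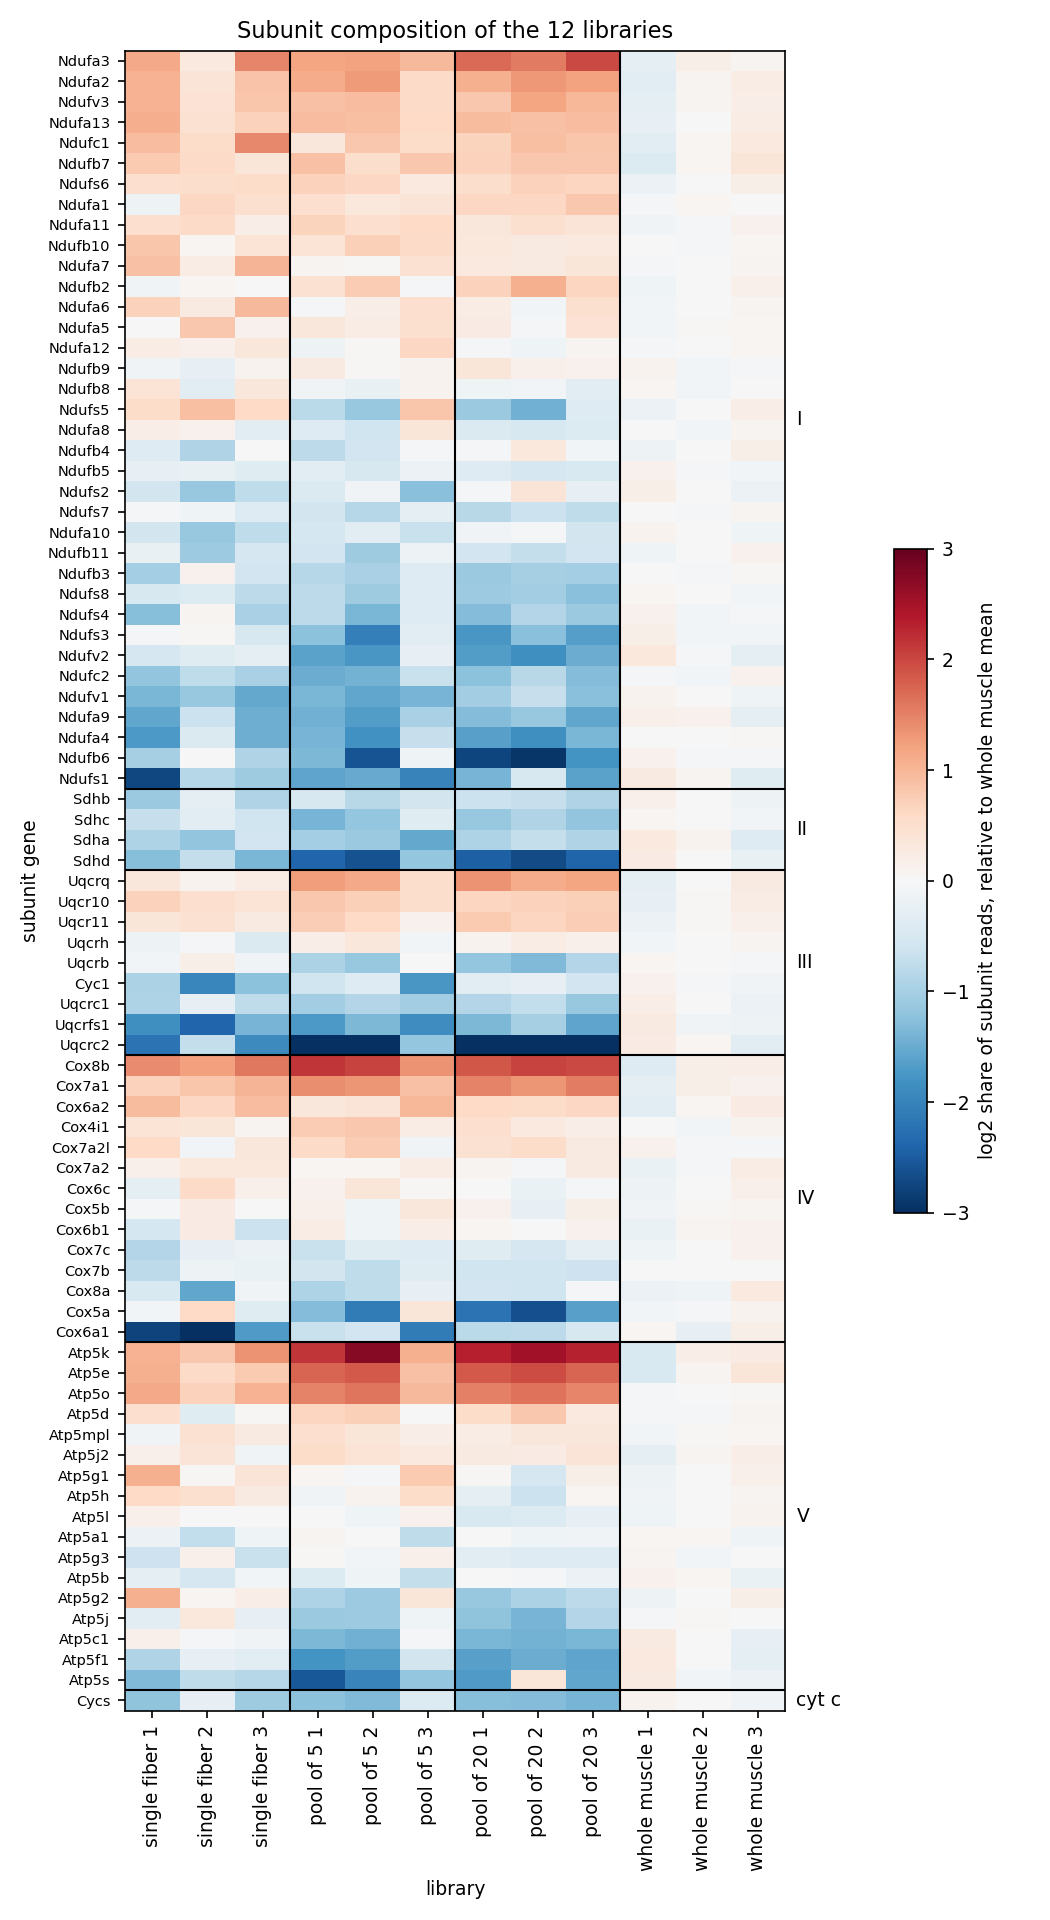
Log2 share of subunit reads of each member relative to its whole muscle mean (colour), with members as rows by complex and libraries as columns by group; members with few reads are left out, 81 are drawn, and the colour scale ends at 3. The 4 rows of complex II are below whole muscle in the 9 fiber columns, and a set of rows is low in pools of 5 replicates 1 and 2 and in the pools of 20.

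With libraries scaled to their subunit reads, a setting chosen after the data were seen, edgeR's quasi-likelihood test called 4 members higher and 6 lower in isolated fibers at an adjusted p under 0.05 (background 0.665% higher and 1.79% lower of 22110 genes, 2.46% in all). This scale is built from the members' own reads and takes out the spread they share, which it does not do for other genes. The members' count is therefore a description and not a like comparison with the background. The higher ones were Cox8b (log2 fold change 1.73, SE 0.33, adjusted p = 0.00782), Atp5k, the small subunit e of ATP synthase (1.83, SE 0.39, adjusted p = 0.0147), Atp5o, its stalk subunit OSCP (1.30, adjusted p = 0.0316), and Atp5e, its epsilon subunit (1.37, adjusted p = 0.0407). The lower ones were Sdhd (log2 fold change -1.85, SE 0.32, adjusted p = 0.00362), Uqcrfs1 (-1.59, SE 0.29, adjusted p = 0.00557), Uqcrc2 (-2.56, adjusted p = 0.00603), Ndufv1 (-1.26, adjusted p = 0.0184), Ndufa9 (-1.28, adjusted p = 0.0303) and Ndufa4 (-1.31, adjusted p = 0.0364). Atp5k held 0.865%, 0.737% and 1.07% of subunit reads in single fibers, 1.87%, 2.81% and 0.888% in pools of 5, and 2.14%, 2.41% and 2.09% in pools of 20, against 0.309%, 0.489% and 0.499% in whole muscle. Ndufa4 held 0.880%, 2.13% and 1.05% in single fibers, 1.09%, 0.821% and 1.79% in pools of 5, and 0.935%, 0.811% and 1.11% in pools of 20, against 2.89%, 2.85% and 2.94% in whole muscle. Neither gene's fiber libraries overlapped whole muscle.

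Complex IV has paired isoforms, and within each of 3 pairs the ratio of the muscle form to the widespread form was higher in isolated fibers than in whole muscle. A ratio of 2 genes within a library does not depend on the scaling between libraries. Cox6a2 is the heart and muscle form of subunit VIa and Cox6a1 the widespread one. Per length, Cox6a2 exceeded Cox6a1 by 193, 188 and 89.6 times in single fibers, 29.4, 28.2 and 125 times in pools of 5, and 38.6, 36.5 and 31.1 times in pools of 20, against 11.2, 18.0 and 15.4 times in whole muscle. All 9 fiber libraries were above whole muscle, with single fibers and pools of 5 replicate 3 highest. The log2 ratio of reads was 6.22 ± 1.17 in isolated fibers (SD, n = 9) and 4.12 ± 0.35 in whole muscle (SD, n = 3), a difference of 2.10 or 4.30-fold.

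Cox8b, the muscle form of subunit VIII, exceeded the widespread Cox8a per length by 39.6, 74.1 and 34.2 times in single fibers, 90.3, 73.4 and 32.3 times in pools of 5, and 58.5, 65.8 and 43.1 times in pools of 20, against 9.29, 13.2 and 10.1 times in whole muscle. The difference in log2 ratio was 2.32, or 4.98-fold, with no overlap. Cox7a1, the muscle form of subunit VIIa, and Cox7a2, the widespread one, were closer: per length the ratio was 1.59, 1.57 and 1.75 in single fibers, 2.73, 2.59 and 1.71 in pools of 5, and 2.90, 2.81 and 2.65 in pools of 20, against 1.01, 1.25 and 1.03 in whole muscle. That difference was 1.00 on the log2 scale, or 2.01-fold, again with no overlap. Here the pools of 20 and pools of 5 replicates 1 and 2 stood highest, unlike in the Cox6a pair. For each of the 3 pairs the exact two-sided permutation test over libraries gave p = 0.00909, also after adjustment over the 3 pairs, which is the smallest p that 9 against 3 libraries can give. In the 4 fiber libraries with little background (the single fibers and pools of 5 replicate 3), the log2 differences from whole muscle were 3.28 for the Cox6a pair, 0.60 for the Cox7a pair and 1.98 for the Cox8 pair, each with p = 0.0571 in the exact permutation test, the smallest p that 4 against 3 can give. Markers of other cells were also called lower in isolated fibers against whole muscle, where 7.78% of all genes were lower. Called were 5 of 5 fibroblast, 6 of 6 endothelial and 6 of 6 adipocyte markers. So were 4 of 4 macrophage, 5 of 5 erythroid and 3 of 4 Schwann cell markers. Pools of 5 alone gave 1 fibroblast, 0 endothelial, 5 adipocyte, 2 macrophage, 1 erythroid and 2 Schwann cell markers. In pools of 20 alone these counts were 5, 4, 5, 4, 2 and 2 in the same order. Their summed levels in fibers against whole muscle were 8.18 to 453 against 3031 to 3423 CPM for fibroblasts, 14.4 to 597 against 1045 to 1160 CPM for endothelium, and 0 to 9.55 against 806 to 1094 CPM for adipocytes. The part of these cells in the ratios was not tested.

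**Figure D3:**
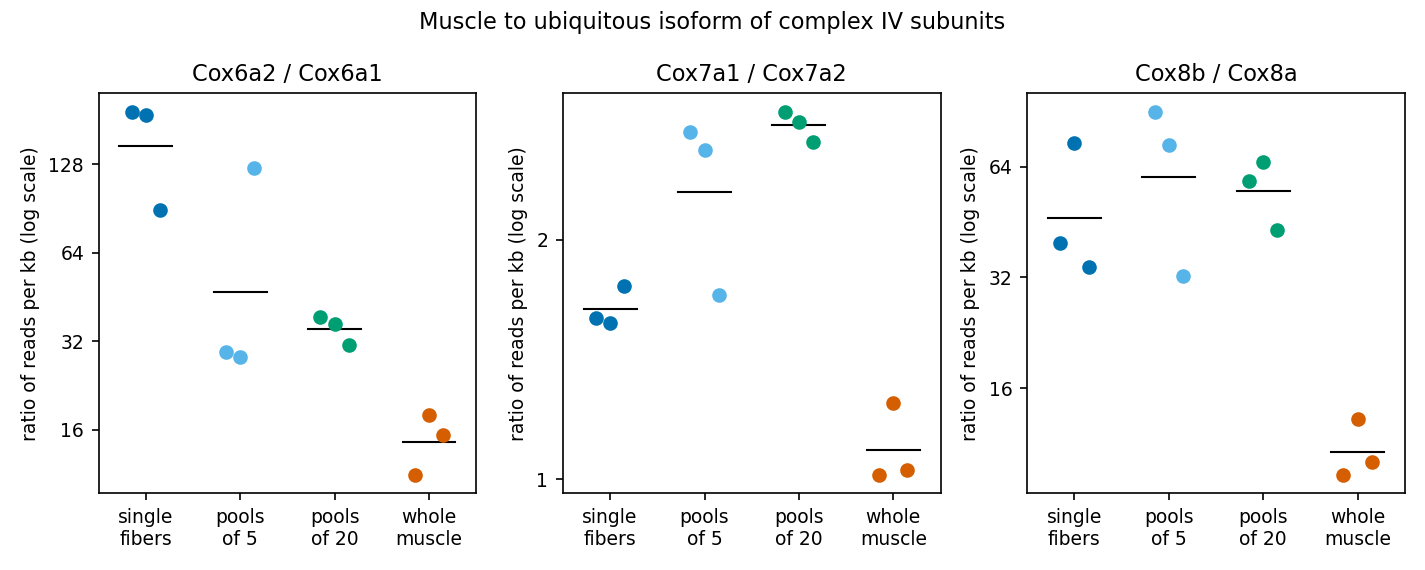
Ratio of reads per length of the muscle form to the widespread form for the Cox6a, Cox7a and Cox8 pairs (y axis, log scale) by group (x axis); points are libraries and lines geometric means of a group. Every fiber point lies above the 3 whole muscle points, and the mean of single fibers is the highest of the groups for the Cox6a pair but the lowest of the fiber groups for the Cox7a pair.

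The levels behind these ratios differed by pair. Cox8b stood at 1957, 4014 and 1565 CPM in single fibers, 3022, 2025 and 3687 CPM in pools of 5, and 1796, 234 and 1667 CPM in pools of 20, against 313, 583 and 636 CPM in whole muscle. Cox8a stood at 69.9 to 82.7 CPM in single fibers, 42.0 to 174 CPM in pools of 5 and 5.38 to 59.0 CPM in pools of 20, against 51.5 to 96.2 CPM in whole muscle, overlapping in each. Cox6a1 was at 13.2, 25.4 and 20.1 CPM in single fibers, below the 53.3, 54.9 and 78.0 CPM of whole muscle. ATP synthase also has interchangeable genes, Atp5g1, Atp5g2 and Atp5g3, whose mature c-ring proteins are identical. Of the reads on these genes, Atp5g1 took 64.3%, 37.1% and 55.7% in single fibers, 40.2%, 40.0% and 49.7% in pools of 5, and 45.6%, 37.3% and 48.4% in pools of 20, against 35.3%, 40.1% and 41.0% in whole muscle. The groups overlapped, and Atp5g2 stayed at 1.85% to 6.09% in the fibers against 3.31% to 3.97% in whole muscle.

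A pair of alternative subunits was nearly missing from single fibers. Cox4i2 replaces the widespread Cox4i1 in complex IV of lung and of pericytes, and Ndufa4l2, a relative of Ndufa4, is induced by hypoxia and is also known from pericytes. Ndufa4l2 (chr10:127514967-127517154, plus strand, GRCm38) had 0, 0 and 1 reads in single fibers, 67, 31 and 3 in pools of 5, and 0, 6 and 74 in pools of 20, against 94, 245 and 377 in whole muscle. Cox4i2 (chr2:152754173-152765037, plus strand) had 0, 0 and 1 reads in single fibers, 23, 18 and 2 in pools of 5, and 3, 5 and 21 in pools of 20, against 37, 154 and 182 in whole muscle. In CPM all 9 fiber libraries were below whole muscle for Ndufa4l2, while for Cox4i2 pools of 5 replicate 2, at 2.89 CPM, lay just above whole muscle replicate 1, at 2.87 CPM. Without overlap on that scale, 2 of 84 members lay below, Ndufa4l2 and Uqcrfs1, and 0 above, against 7.72% of all genes below and 3.22% above, 10.9% in all. In single fibers the read density of Ndufa4l2 and Cox4i2 lay within that of the receptor genes (99th percentile), so no signal of them above background was detectable at this depth.

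Isolated fibers against whole muscle, fitted on all 12 libraries with TMM, called 2 of 84 members tested lower, Cox4i2 and Ndufa4l2, and 0 higher. The background was 7.46% of genes higher and 7.78% lower, 15.2% in all. The log2 fold change was -3.89 for Cox4i2 (SE 0.78, adjusted p = 0.00306) and -4.09 for Ndufa4l2 (SE 0.85, adjusted p = 0.00404). Both values include single fibers with almost no reads and so depend on the model's prior count. Both calls held in each of 12 fits that left out 1 library, but not on subunit scaling, where the log2 fold change was -3.62 for Cox4i2 (adjusted p = 0.149) and -4.02 for Ndufa4l2 (adjusted p = 0.108). Pooled over the group and scaled, single fibers were 392-fold lower than whole muscle for Ndufa4l2 (95% Clopper-Pearson interval 70.1 to 15503) and 204-fold lower for Cox4i2 (36.4 to 8086). Pools of 5 were 3.25-fold lower for Ndufa4l2 and 3.97-fold for Cox4i2, and pools of 20 were 5.47-fold and 7.86-fold lower for the same 2 genes. The intervals cover counting error only.

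Of 5 pericyte and smooth muscle markers, 4 were called lower in isolated fibers, all but Notch3. In single fibers 5 were called lower, but in pools of 5 and in pools of 20 only 1 each, Acta2. Their summed level was 0.909 to 5.08 CPM in single fibers, 33.6 to 350 CPM in pools of 5 and 24.9 to 194 CPM in pools of 20, against 279 to 289 CPM in whole muscle. None of the 5 was without reads, although Rgs5 had 12 reads and Higd1b 3 reads over the 3 single fibers, against 12937 and 623 reads in whole muscle. Pools of 5 replicate 1 exceeded whole muscle in summed marker level, and its Cox4i2 and Ndufa4l2 were below whole muscle. Rgs5 made up most of the marker reads in pools of 5, with 4821 reads, while Acta2 had 268 there against 4908 in whole muscle. The part of these cells in the result was not tested, and in mixed RNA fewer cells of a type and less RNA per cell cannot be told apart. The partner Cox4i1 was at 1012 to 3993 CPM in single fibers, 1578 to 3061 CPM in pools of 5 and 127 to 1256 CPM in pools of 20, against 731 to 1068 CPM in whole muscle, and was not called in isolated fibers (log2 fold change 0.81, adjusted p = 0.513). The testis forms Cox7b2 and Cox8c had 0 reads in single fibers and in whole muscle, and 8 and 15 reads in pools of 20.

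**Figure D4:**
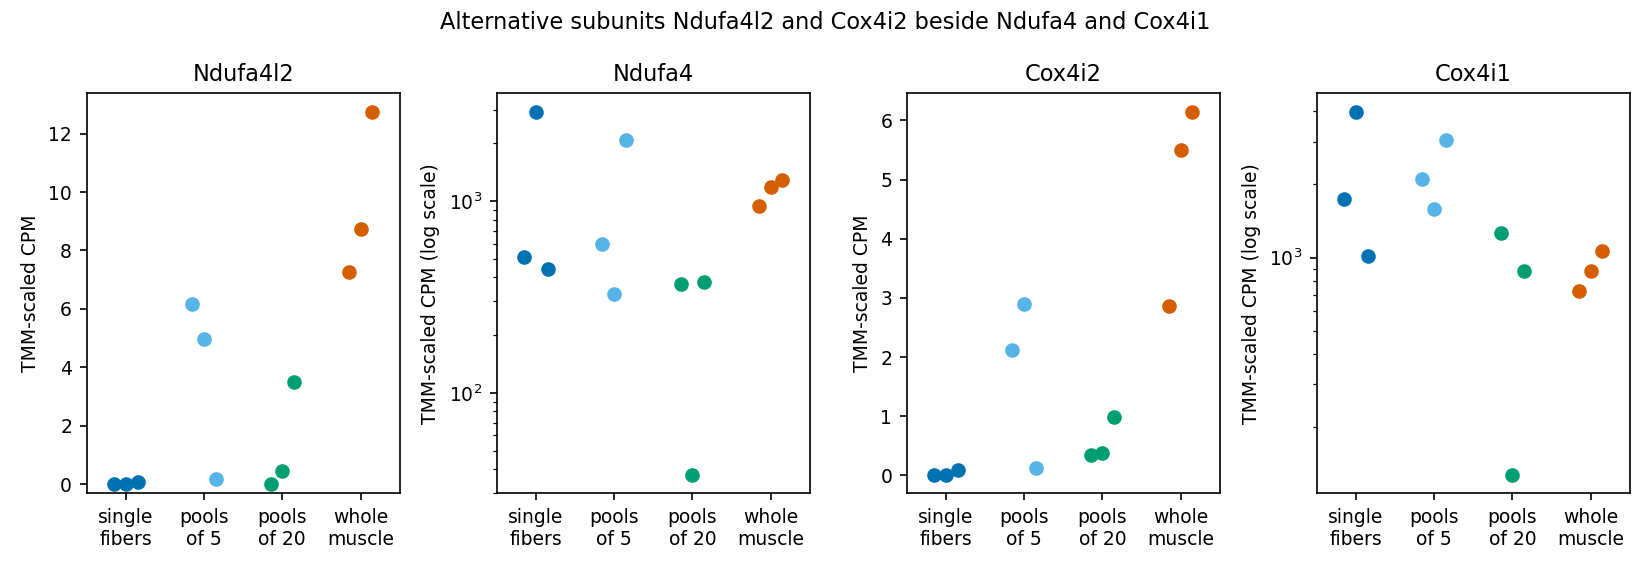
Levels of Ndufa4l2 and Cox4i2 in each library (TMM-scaled CPM, y axis) by group (x axis), with their partners Ndufa4 and Cox4i1 on a log axis; each point is 1 library. Both alternative subunits are at or near 0 in the 3 single fibers and highest in whole muscle, while their partners are read in all 12 libraries.

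Single fibers against whole muscle, the comparison with the most members called higher, asked what 1 fiber holds of the chain beside its tissue. Of 83 members tested, 23 were higher and 4 lower in single fibers, against 13.9% of 14028 genes higher and 19.8% lower, or 33.6% in either direction. The members' median log2 fold change was 0.91, while that of all genes was -0.12. By complex, 12 of 37 were higher in complex I, 0 of 4 in complex II, 1 of 9 in complex III, 4 of 15 tested in complex IV and 6 of 17 tested in complex V. Highest was Cox8b, 2.23 higher on the log2 scale (SE 0.42, adjusted p = 0.00773), followed by Atp5k at 1.85, Atp5o at 1.81, Ndufc1 and Cox7a1 at 1.74 each, Ndufa3 at 1.72, Ndufs5 at 1.66 and Cox6a2 at 1.65 (adjusted p = 0.0191). Ndufa13, an accessory subunit also known as GRIM-19, was 1.58 higher (adjusted p = 0.0182), and Cox7a2l, a factor that joins complexes III and IV into supercomplexes, 1.13 higher. Beside Ndufa4l2 and Cox4i2, the lower members were Cox6a1 (log2 fold change -1.71, SE 0.32, adjusted p = 0.00769) and Uqcrfs1 (-1.06, SE 0.27, adjusted p = 0.0194). Core subunits with no call included Atp5b, the catalytic beta subunit, at 0.58 (adjusted p = 0.238), Ndufs1 at -0.26 (adjusted p = 0.783) and Sdha at -0.05 (adjusted p = 0.924). Without whole muscle replicate 1, 2 or 3, the number called higher was 2, 1 and 5. The genes called in all fell too, from 4716 to 1753, 1540 and 1637 in these fits. A fit of all 12 libraries called 0 higher and 2 lower, with a median of 0.98 and 2854 genes called in all. Subunit scaling called 2 higher and 8 lower, with 3482 genes called in all. Without single fiber 2, which stands apart, 24 members were higher and 17 lower, among them Ndufa4, Sdhb and Cycs, which are not called with it, and 7617 genes were called in all, against 4716.

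Pools of 5 against whole muscle gave 5 higher members and 0 lower of 83, against 4.63% of genes higher and 4.22% lower, 8.85% in all. The 5 were Atp5k (log2 fold change 2.55, adjusted p = 0.0193), Cox8b (2.44, adjusted p = 0.0270), Atp5e (2.05, adjusted p = 0.0394), Atp5o (2.01, adjusted p = 0.0270) and Cox7a1 (1.83, adjusted p = 0.0472). All 5 were also called in single fibers, with the same whole muscle libraries as control in both comparisons. None of the 5 was called without pools of 5 replicate 1, where 202 genes were called in all. Nor was any without whole muscle replicate 1, 2 or 3, where 7, 46 and 45 genes were called in all. Without pools of 5 replicate 3 the fit called 23 higher and 19 lower, with 7920 genes called in all, against 1307 with all libraries. Pools of 20 against whole muscle gave 0 members higher and 10 lower of 83, against 30.3% of genes higher and 13.5% lower, 43.9% in all, so the share called lower was near that of all genes. The median was -0.56 for members and 0.38 for all genes. Uqcrc2, a core protein of complex III, led at -4.38 (SE 0.72, adjusted p = 2.80e-04), followed by Sdhd at -2.78, Cox4i2 at -2.69, Ndufb6 at -2.61, Ndufa4l2 at -2.44 and Cox5a at -2.33 (adjusted p = 0.0267). The remaining lower members were Ndufs3, Ndufs1, Ndufa9 and Atp5s. Pools of 20 replicate 2, with the most background, weighed on this: without it 13 members were higher and 36 lower, with 10843 genes called in all against 7446.

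Single fibers against pools of 20 called 14 of 81 members, all higher in single fibers, against 8.52% of genes higher and 27.5% lower, 36.1% in all. The median was 1.42 for members and -0.74 for all genes. Uqcrc2 stood at 109, 722 and 97.7 CPM in single fibers and 21.1, 3.72 and 15.8 CPM in pools of 20, which is 4.16 higher on the log2 scale (SE 0.85, adjusted p = 0.00727). Cox5a, a matrix-facing subunit of complex IV, stood at 594, 2246 and 353 CPM in single fibers and 91.4, 7.96 and 119 CPM in pools of 20 (log2 fold change 3.57, SE 0.96, adjusted p = 0.0116). The groups did not overlap for either gene. The other 12 were Ndufb6, Ndufs3, Ndufs5, Sdhd, Atp5c1, Atp5g2, Ndufv2, Atp5f1, Uqcrb, Ndufb3, Sdhc and Atp5s, with log2 fold changes of 1.68 to 3.23. Calls of Uqcrc2, Cox5a, Ndufs3, Ndufs5 and Atp5g2 held in all 6 fits that left out 1 library, while those of Atp5f1 and Uqcrb held in 0.

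The same members also differed among the pools of 5, which had no part in choosing them. As a share of subunit reads, all 14 were higher in pools of 5 replicate 3 than in the other 2 pools of 5, as were 26 of the 67 members tested and not called. Cox5a held 1.02%, 1.63% and 0.838% in single fibers, 0.437%, 0.254% and 1.39% in pools of 5, and 0.233%, 0.173% and 0.349% in pools of 20, against 1.03%, 1.06% and 1.17% in whole muscle. Atp5c1, the gamma subunit that turns inside ATP synthase, held 2.67% to 3.20% in single fibers and 2.75% in pools of 5 replicate 3, but 1.06% to 1.14% in the high-background libraries, against 2.44% to 3.44% in whole muscle. Ndufs5 held 0.458% to 0.580% in single fibers and pools of 5 replicate 3, and 0.115% to 0.239% in the high-background libraries, against 0.275% to 0.357% in whole muscle. For these 3 genes pools of 5 replicate 3 sat with the single fibers and not with the other pools of 5, which have high background. The part of background reads in this split was not tested. Single fibers against pools of 5 called 0 of 81 members (0.0157% of genes called, and 1 member lower at an unadjusted p under 0.05). Pools of 5 against pools of 20 called 0 of 83 with edgeR (0% of genes), 5 higher at an unadjusted p under 0.05, and 1 with DESeq2.

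Members with high and low shares also differed in size. Across the 84 members tested, the log2 fold change of isolated fibers against whole muscle decreased with coding length (Spearman rho -0.455, across genes, which are not independent), while over 16658 protein-coding genes it was 0.158. The sign was the same for members in single fibers (-0.468), pools of 5 (-0.487) and pools of 20 (-0.449) against the same whole muscle libraries. The 48 members tested with coding sequence under 450 bases had a median of 1.19 in single fibers against whole muscle, while the 12 over 900 bases had a median of 0.00. Over all protein-coding genes in that comparison the medians were 0.40 for 882 short and -0.30 for 9003 long ones, the same direction, with a rho of -0.00498. In pools of 5 they were 0.04 and -0.06. They went the other way in pools of 20, at -0.62 for short and 0.46 for long genes, and in isolated fibers, at -0.03 and 0.16. Short members took 59.0% to 65.4% of subunit reads in the fibers, against 45.1% to 54.0% in whole muscle, and long members 10.6% to 17.5% against 17.8% to 22.3%. Neither class overlapped between fibers and whole muscle. Ndufa4, Cox6a1 and Cycs were short members whose share was below whole muscle in every fiber library.

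**Figure D5:**
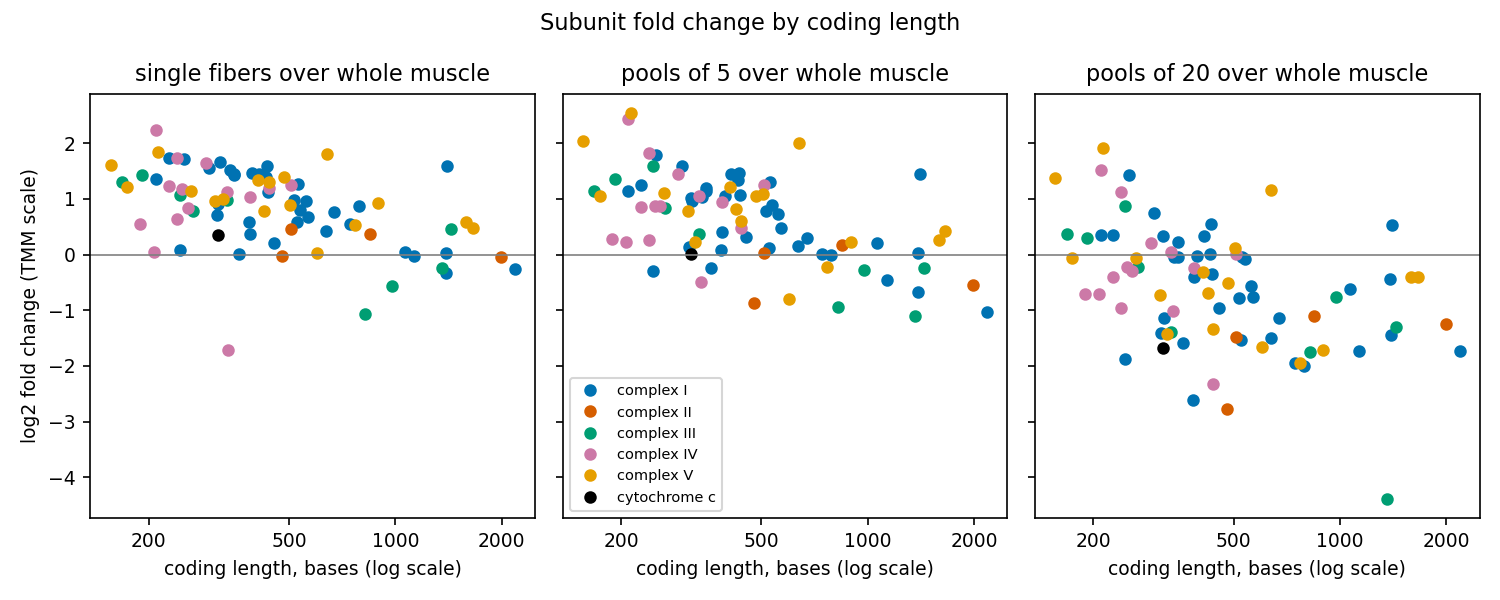
Log2 fold change of each member (y axis) by its coding length in bases (log x axis), coloured by complex, in single fibers, pools of 5 and pools of 20, each over whole muscle; Ndufa4l2 and Cox4i2 are left out. In single fibers 46 of the 48 short members tested had a value above 0, as did 6 of the 12 long ones. The 48 include Ndufa4l2, which was below 0 and is not drawn.

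Assembly factors and other genes of the pathway were counted beside the subunits. In isolated fibers against whole muscle, Acad9, needed to build complex I, was lower (log2 fold change -1.82, adjusted p = 0.00744) among 14 complex I factors tested, and Cox11 (-3.13, adjusted p = 0.00515), Taco1 (-2.41, adjusted p = 0.00128) and Cox15 (-1.34, adjusted p = 0.0146) among 16 complex IV factors, with 0 higher in either list. None of 4 complex II, 6 complex III and 3 ATP synthase factors was called. Over all genes 7.46% were higher and 7.78% lower in this comparison, so the share called among complex I factors was near that of all genes. The medians were -0.08, -0.44, 0.18, -0.19 and -0.58 for the factors of complexes I, II, III, IV and V, and 0.40 over all genes. Of 13 mitochondrially encoded subunits, 4 were higher in isolated fibers and 10 in single fibers, against 7.46% and 13.9% of all genes. The 4 were mt-Co2, mt-Co3, mt-Atp6 and mt-Nd6. Summed over whole muscle, mt-Co2 had 2747 reads, mt-Co3 3245 and mt-Atp6 1559, against 760384 for mt-Co1 and 672501 for mt-Cytb. The reason for these low counts was not tested, and the multi-mapping settings are not known. Reads on these 13 genes outnumbered reads on the nuclear members by 1.79, 2.56 and 2.38 times in single fibers, 3.71, 6.91 and 1.49 times in pools of 5, and 4.21, 5.35 and 3.55 times in pools of 20, against 1.32, 0.793 and 0.722 times in whole muscle, with every fiber library above. Among 10 regulators of mitochondrial biogenesis, Ppard was higher (2.09, adjusted p = 0.0304) and Gabpa lower (-1.34, adjusted p = 0.0193) in isolated fibers, again near the share of all genes. In single fibers against whole muscle, Ppargc1a, which encodes the coactivator PGC-1alpha, was higher (2.93, SE 0.60, adjusted p = 0.00966) and its partner Esrra lower (-1.27, adjusted p = 0.00995). These were 1 higher and 1 lower of the 10 regulators, against 13.9% of genes higher and 19.8% lower.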

How the data were processed

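The values are raw read counts per Ensembl gene as deposited, with no normalization; the submitters' processing notes list featureCounts, HISAT2 and SAMtools and the build GRCm38 (mm10), with versions, strand and multi-mapping settings not given in the sources used here. Symbols, gene types and lengths came from GENCODE vM21, which matched 55480 of 55573 identifiers. The members and lists were chosen with earlier results of these data known.

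Counts were tested with edgeR 4.0.16 in R 4.3.3 (TMM, filterByExpr, glmQLFit, glmQLFTest), with Benjamini-Hochberg adjustment over all genes tested and a threshold of 0.05. The comparison of isolated fibers set the average of the 3 fiber groups against whole muscle over 12 libraries, and each pair of groups its own 6 libraries. Isoform ratios took 0.5 reads added to each gene and an exact permutation test in SciPy 1.17.1. Levels in CPM use library sizes multiplied by the TMM factors. Alternatives were RLE and upper-quartile factors, no filter, DESeq2 1.42.0, a replicate block, libraries left out, a fit of all 12 libraries, and scaling to subunit reads. The edgeR script was tested on simulated data.

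Members named with library values were, in each complex, that with the highest mean CPM and up to 3 called in isolated fibers with the largest change, and fixed isoform pairs and core subunits; other members were named where called, or after their values were seen. Per length means reads over the length of the gene's principal transcript (APPRIS tag in GENCODE). Read density beside the receptor genes used the exon length of the gene. The second Atp5o identifier, a readthrough gene, had 0 reads in every library. No 2 libraries of a group were near copies. Overlapping genes and near-identical copies make counts uncertain. In all, 13 members shared over 25% of their 50-base windows with other transcripts. Among them were Atp5o, Atp5g2, Atp5h, Cox7c, Ndufs5, Ndufb6, Ndufs3, Ndufa13, Uqcrb and Cycs. The expressed Atp5o, called in several comparisons, shared 42.5% of its windows. Of its exon bases 47.9% overlap another gene, as do 19.8% of those of Uqcrc2.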

Additional observations from a re-analysis of the deposited data

Results flagged for a closer look

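For 14 members, the level differed in the direct test of single fibers against pools of 20 (edgeR, adjusted p = 0.00727 to 0.0461, each higher in single fibers). All pools of 20 have high background. As a share of subunit reads, 12 of the 14 were lower in every high-background library than in every other fiber library. So were 7 of the 67 members tested and not called, and the part of background reads was not tested. Most of these libraries are the single fibers and pools of 20 whose difference chose the 14. The count of 12 therefore follows in large part from that choice. The log2 differences were 4.16 for Uqcrc2, 3.57 for Cox5a, 3.23 for Ndufb6, 2.91 for Ndufs3, 2.85 for Ndufs5, 2.79 for Sdhd, 2.69 for Atp5c1, 2.67 for Atp5g2, 2.54 for Ndufv2, 2.51 for Atp5f1, 2.41 for Uqcrb, 2.17 for Ndufb3, 1.96 for Sdhc and 1.68 for Atp5s. On subunit scaling the comparison called 6 members higher, each of them among these 14, and Atp5k lower, and with the replicate block it called 0.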

How the results depend on the processing

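For isolated fibers against whole muscle, 2 members were called with TMM, 5 with RLE and 5 with upper-quartile factors, 14 with DESeq2, 29 without the high-background libraries, 46 without the 3 libraries that stand apart, and 10 on subunit scaling. For single fibers against whole muscle, 27 were called (4716). The count was 16 with the replicate block (3132) and 2, both lower, in a fit of all 12 libraries (2854). Without single fiber 2 it was 41 (7617), and on subunit scaling 10 (3482). For pools of 5 against whole muscle (5 called), it was 9 with RLE, 11 with upper quartile, 2 without a filter, 28 with DESeq2, 0 with the block, 74 without the high-background libraries (which leaves 1 pool of 5, replicate 3, assumed to vary like whole muscle), 0 in a fit of all libraries, 42 without pools of 5 replicate 3 and 15 on subunit scaling. For pools of 20 against whole muscle, 10 were called (7446). The count was 16 with upper quartile (7630), 30 with DESeq2 (8275), 49 without pools of 20 replicate 2 (10843) and 38 on subunit scaling (4738). Single fibers against pools of 5 gave 0 (2) in the main fit. The count was 1 without a filter (768), 2 in a fit of all libraries (755) and 11 without the libraries that stand apart (3313). Single fibers against pools of 20 gave 14 (6123) in the main fit. The count was 36 with DESeq2 (7272), 0 with the block (7), 23 in a fit of all libraries (8562) and 7 on subunit scaling (5596). Pools of 5 against pools of 20 gave 0 (0) in the main fit and 1 with DESeq2 (179). Leaving out each library in turn gave 2 to 11, 4 to 41, 0 to 42, 6 to 49, 0 to 1, 7 to 17 and 0 to 0 calls in these 7 comparisons in the same order. Genes called in all then ran from 1193 to 7271, 1540 to 7617, 7 to 7920, 6605 to 13512, 0 to 833, 3931 to 10714 and 0 to 86.

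The isoform ratios kept their direction in every setting run: leaving out 1 library at a time gave 1.90 to 2.25 for Cox6a, 0.95 to 1.10 for Cox7a and 2.21 to 2.46 for Cox8. Without the 3 libraries that stand apart they were 1.80, 1.08 and 2.31. Without the high-background libraries they were 3.28, 0.60 and 1.98, and with the replicate block 2.10, 1.00 and 2.32, at p = 0.25 in the exact permutation test, the smallest that 3 pairs allow. Of 18 same-numbered pairs of libraries, 3 correlated above 0.1, so numbers were not taken to pair samples. Without single fiber 2, Cycs (-0.80), Ndufa4 (-1.27) and Sdhb (-0.68) were lower in single fibers than in whole muscle, while without 1 of the other libraries Cycs reached 0.66 and Sdhb 0.66. Without pools of 5 replicate 3, Cycs was -0.95 in pools of 5, and 0.38 without replicate 2; and without the high-background libraries, with 1 pool of 5 left, Ndufa4 was 0.69 there. None of these was called with all libraries, the values named without 1 library passed the test except 0.66 and 0.38, and the cause was not tested. The median log2 fold change of all genes in isolated fibers was 0.40 with TMM, so levels depend on the scaling, while shares and ratios within a library do not. Fits without the high-background libraries could not be made for comparisons with pools of 20. Depth limits Cox4i2 and Ndufa4l2 in single fibers, where 1 read each was counted.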
